A study of Homo sapiens
Mus musculus and Homo sapiens with 2 samples.

Results

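The genes described here encode the proteasome, the protease that degrades proteins marked with ubiquitin. They were chosen by symbol: all protein-coding genes of the A549 gene annotation whose symbol is PSM, a letter from A to G and a number. The rule gave 48 genes of 43167 in the annotation, 19128 of them protein-coding. The 48 genes carry 47 symbols, because PSMA2 stands beside 2 gene identifiers. The second identifier, ENSG00000256646.3, is printed as such below. In the GENCODE release 29 annotation it is a separate protein-coding gene that overlaps both PSMA2 and C7orf25 on the same strand.

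The proteasome is a barrel of stacked rings, the 20S core, closed at its ends by regulatory particles. The outer rings of the core hold alpha subunits (PSMA genes) and the inner rings beta subunits (PSMB genes), of which PSMB5, PSMB6 and PSMB7 carry the proteolytic sites. The 19S cap binds ubiquitin and unfolds the substrate with a ring of ATPases (PSMC genes), set in a base and a lid of further subunits (PSMD genes). PSME genes encode other activators, PSMF1 an inhibitor, and PSMG genes chaperones that assemble the core. Under interferon, cells replace the proteolytic subunits with PSMB8, PSMB9 and PSMB10, which gives the immunoproteasome. Proteasome genes are usually expressed in all cells, and many of their mRNAs are long-lived.

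The data come from sci-fate, a single-cell RNA assay in which cells take up the uridine analog 4-thiouridine (S4U). Iodoacetamide then changes the S4U bases so that molecules made during labelling can be told from older ones. The A549 sample, a human lung adenocarcinoma line, received the glucocorticoid dexamethasone for 0, 2, 4, 6, 8 or 10 h and S4U at 200 µM during the last 2 h. The dose is 100 nM in the protocol and 101 nM in the sample's own label, and control cells received ethanol in the same volume. The other sample mixed HEK293T, a human embryonic kidney line, with the mouse fibroblast line NIH/3T3. Its labelled cells had S4U at 200 µM for 6 h and then iodoacetamide. The mixture's label also lists 100 nM dexamethasone at the A549 times, whereas the protocol names only A549 as treated, so whether the mixture was exposed is uncertain. Other cells of the mixture had iodoacetamide only, S4U only or neither. Each A549 time was 1 culture and each labelling group 1 set of cells, with no replicates. The group labels name labelling and treatment only, so whether the groups came from separate cultures is unknown.

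The A549 sample held 7404 cells in 6 cultures with 28870594 to 43084614 counts each. HEK293T had 913 labelled cells, 1025 with iodoacetamide only, 455 with S4U only and 559 with neither. No cell barcode was shared between the samples. Of the 7 A549 markers, 6 lay above 10 counts per 1000000 counts (CPM) in A549, and the exception was EPCAM at 3.70 to 5.93 CPM. Of the 6 HEK293T markers, 5 lay above 10 CPM in HEK293T, where PAX2 had 3.59 to 6.55 CPM. Of the A549 list KRT18 also lay above 10 CPM in HEK293T (29.8 to 35.6 CPM). Of the HEK293T list LIN28B (17.7 to 24.2 CPM) and VIM also lay above 10 CPM in A549. VIM, at 1871 to 2351 CPM in A549 against 1094 to 1293 CPM in HEK293T, put that list's sum higher in A549, while the other 5 HEK293T markers were all higher in HEK293T. The 5 immune cell markers summed to 0.418 to 0.609 CPM in A549 cultures, with no defining marker above 0.392 CPM.

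Within the 10 h culture, 1 reverse-transcription index stood apart. Cells carry 1 of 378 such indexes, each used for a single time, with a median of 19 cells. All 17 cells of the A549 sample with more than 6 counts of PSMG4, a core assembly chaperone, carried the same index. The index held 18 cells with 6 to 39 PSMG4 counts each, 336 counts in all, or 855 CPM. No other index of that culture exceeded 38.9 CPM. The index therefore held 30.9% of the culture's 1089 PSMG4 counts. The level and slope of PSMG4 are given with and without it, and its pooled new share only with it. Apart from ENSG00000256646.3 and PSMA2, which were not screened, the next largest excess within 1 index, as a percent of a gene's own counts, was 2.61%, for PSMA8 (3 counts).

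The inducible beta subunits resemble the subunits they replace, so their sequences matter for reading the gene counts. The lines below show the most alike 60 coding bases of each pair, from GENCODE release 29 transcripts after global alignment of the coding sequences, with every mismatch in capitals. PSMB5 is the chymotrypsin-like subunit and PSMB8 its replacement (bases 460 to 519 and 499 to 558 of the coding sequences).
PSMB5: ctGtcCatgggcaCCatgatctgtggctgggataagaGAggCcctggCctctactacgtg
PSMB8: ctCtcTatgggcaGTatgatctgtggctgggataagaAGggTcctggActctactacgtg
PSMB6 is the caspase-like subunit and PSMB9 its replacement (bases 86 to 145 and 44 to 103).
PSMB6: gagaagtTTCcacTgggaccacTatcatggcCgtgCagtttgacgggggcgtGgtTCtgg
PSMB9: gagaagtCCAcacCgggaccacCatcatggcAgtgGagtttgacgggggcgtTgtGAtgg
PSMB7 is the trypsin-like subunit and PSMB10 its replacement (bases 208 to 267 and 196 to 255).
PSMB7: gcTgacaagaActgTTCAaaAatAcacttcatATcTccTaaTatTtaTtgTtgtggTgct
PSMB10: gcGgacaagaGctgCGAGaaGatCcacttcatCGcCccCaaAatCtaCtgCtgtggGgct
The windows differ at 8, 10 and 17 of 60 bases. Over the whole coding sequences identity was 66.3%, 66.4% and 64.2%, and the longest identical runs were 22, 16 and 14 bases. The counts come from oligo-dT priming, which reads mainly the 3′ ends of transcripts, so these windows show the relation of the genes and not the stretches that were sequenced.

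A small part of the proteasome counts in A549 cells was called new after the 2 h of labelling. The new share, the percent of a gene's counts that the authors called newly synthesised, had a median of 8.68% over the 48 genes, against 26.9% over 15196 protein-coding genes with at least 50 counts. All 48 genes passed that minimum. It lay under 10% for 29 of them, between 10% and 20% for 11 and above 20% for 8. The lowest was PSME1 at 2.69% and the highest ENSG00000256646.3 at 62.5%, which rests on 208 counts. In all, 45 of the 48 lay below the protein-coding median, and the 3 above it were PSMA6, PSMC1 and ENSG00000256646.3. Summed over the genes, 10.1% of the counts were new. A549 cells without S4U or iodoacetamide were not analysed here, so the background of the new call in that line is unknown.

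**Figure D1:**
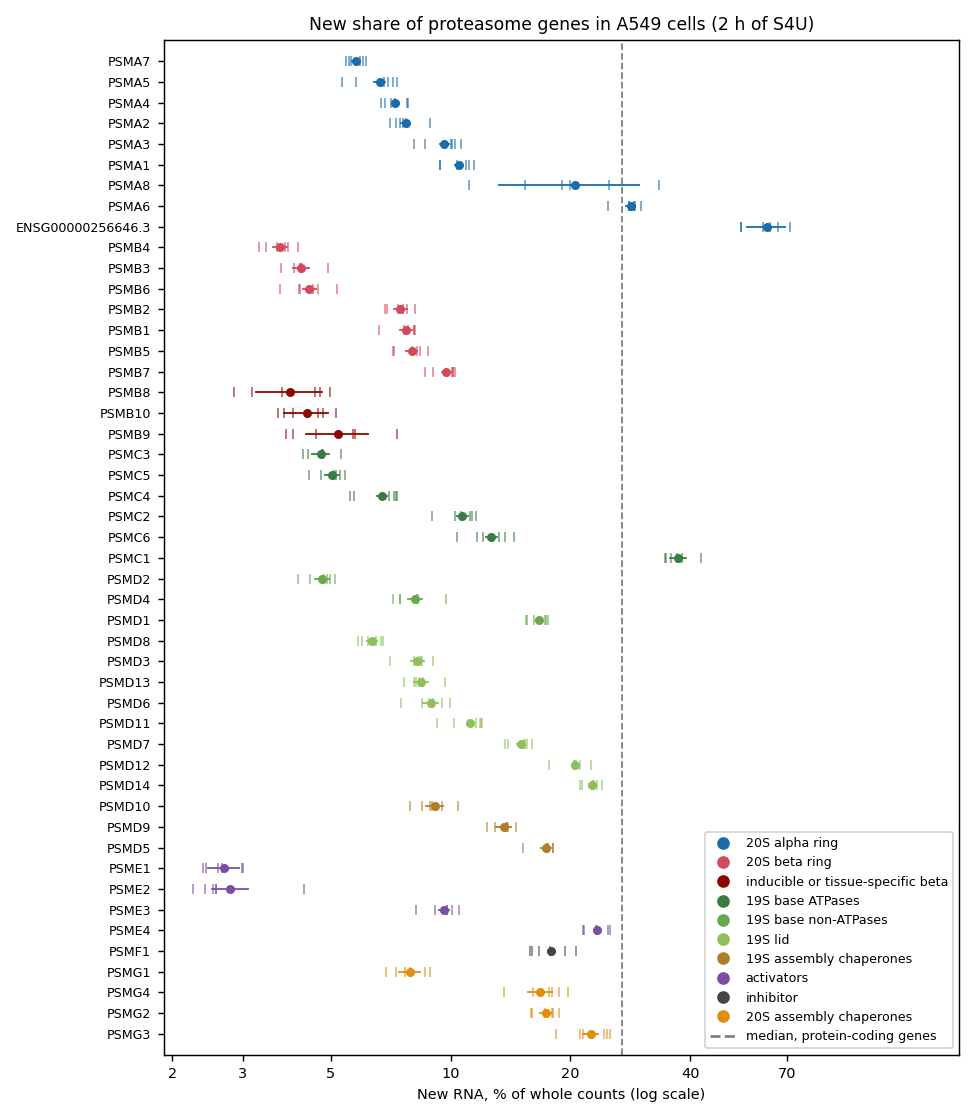
Percent of counts called new for each proteasome gene in A549 cells, on a log axis, grouped and coloured by role. Points pool the 6 cultures, lines are exact Clopper-Pearson 95% intervals (counting error only), and ticks are the single cultures. Most genes lie left of the dashed line, the median of protein-coding genes at 26.9%, while PSMC1 at 37.3% and PSMA6 at 28.3% lie to its right.

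Most of the core's structural and proteolytic genes had low shares. Among the 7 constitutive beta genes the share ran from 3.72% (PSMB4) to 9.75% (PSMB7), with a median of 7.48%. PSMB5 had 7.99%, PSMB6 4.41% and PSMB7 9.75%. The inducible PSMB8, PSMB10 and PSMB9 had 3.94%, 4.35% and 5.21%, within the range of the constitutive ones. The alpha genes had a median of 9.64%, with PSMA7 lowest at 5.79%. ENSG00000256646.3 (62.5%), PSMA6 (28.3%) and PSMA8 (20.6%, from 102 counts) were highest among them. PSMA7 and PSMA1 (10.5%) differed beyond counting error, with exact 95% intervals of 5.65 to 5.93 and 10.2 to 10.7, although both proteins stand in the same ring.

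The 19S cap spread more widely than the constitutive beta genes. The 6 ATPase genes ran from 4.71% (PSMC3) to 37.3% (PSMC1). The non-ATPases of the base ran from 4.75% for PSMD2 to 16.6% for PSMD1, the scaffold subunits that bind ubiquitin receptors and shuttle factors. The 8 lid genes had a median of 10.1%. Highest among them were PSMD14, the deubiquitinase of the lid, at 22.7%, and PSMD12 at 20.6%. Of the 7 genes for assembly chaperones, 6 stood above the median of all 48. The chaperones of the 19S base, PSMD10, PSMD9 and PSMD5, had 9.12%, 13.6% and 17.3%. Among the core's chaperones PSMG2, PSMG4 and PSMG3 had 17.4%, 16.8% and 22.5%, but PSMG1, the partner of PSMG2, had 7.88%.

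The activators ranged widely. PSME1 and PSME2, which form the ring that interferon induces, had 2.69% (2.45 to 2.95) and 2.79% (2.52 to 3.09), the lowest shares of the 48. The nuclear activator PSME3 had 9.63%, and PSME4, the single-chain activator, 23.4%. The inhibitor PSMF1 had 17.9%.

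The new share of the 3 highest and 3 lowest genes with at least 50 counts in each human line is given by culture. PSMC1 had 35.8, 34.6, 37.1, 38.0, 34.9 and 42.7% at 0, 2, 4, 6, 8 and 10 h. PSMA6 had 24.9, 28.0, 29.1, 30.0, 28.9 and 28.0% in that order. PSME4 had 21.6, 23.2, 21.6, 24.9, 25.1 and 23.3%. The low genes follow in the same order. PSME1 had 3.00, 2.61, 2.67, 2.99, 2.38 and 2.43%. PSME2 had 2.52, 2.42, 2.25, 2.57, 2.57 and 4.29%, with 10 h apart from the rest. PSMB4, a structural beta subunit, had 4.15, 3.31, 3.44, 3.83, 3.90 and 3.65%.

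For PSMC1 and PSMA6, other annotated genes can take or share reads. The annotation holds 13 pseudogene copies of PSMC1, whose counts came to 13.8% of its own (423 against 3072). Of PSMA6 there are 3 copies, with 1.12% of its counts, and a gene on the same strand overlaps it. Over all 26 proteasome pseudogenes the copies' counts were 0.0517% of those of the 48 genes. How reads that match several genes were treated is not stated in the labels or headers, so the shares of PSMC1 and PSMA6 are uncertain. In NIH/3T3 cells, labelled for 6 h, mouse Psmc1 had 34.7% and Psma6 38.6%, beside a median of 35.9% over the 43 mouse proteasome genes with at least 50 counts. Part of the 48 genes also overlap others in GENCODE release 29. Of 47 that matched by identifier, 14 overlap a gene on the same strand and 25 one on the opposite strand, 10 of them both, and 18 overlap none. The labels and headers do not say whether counting used strand.

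Other housekeeping complexes were measured alongside. Their median new shares in A549 were 6.16% for 82 cytosolic ribosomal protein genes, 7.81% for the 8 genes of the CCT chaperonin, which folds actin and tubulin, 11.7% for the 9 genes of the COP9 signalosome, a relative of the 19S lid, and 13.4% for 78 mitochondrial ribosomal protein genes. The 29 other genes of the ubiquitin and proteasome pathway had 19.2%, and 13 antigen processing genes 6.73%. The proteasome median thus lay between those of the CCT and the COP9 genes.

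Within the 48 genes, longer genes had higher shares. The Spearman correlation of the A549 share with the gene's genomic span was 0.72 over 47 genes, beside 0.31 over all 14948 protein-coding genes with both values. With the thymine content of the longest transcript it was 0.46 over 46 genes (0.23 over all), and with the transcript's length 0.42 (0.29 over all). These are descriptions across genes of 1 library. Lengths come from GENCODE release 29, a later annotation than that of the files. Reads come mainly from 3′ ends, so values for whole transcripts do not measure the bases that were read. Whether length or thymine content affects the call of new molecules was not tested.

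In labelled HEK293T cells, after 6 h of S4U, 43 of the 48 genes had at least 50 counts. Their median new share was 31.7%, against 71.3% over 10517 protein-coding genes, and 41 of the 43 lay below that median. PSMG2 (79.2%) and PSMG3 (73.6%) lay above it. PSMB3 was lowest at 8.80%, followed by PSME1 at 11.9%, PSMD2 at 14.3% and PSMB4 at 14.4%. In HEK293T cells with iodoacetamide only all 48 genes together had 1.06% called new, with S4U only 0.802% and with neither 0.719%, against 33.0% in labelled cells. The highest background of a single gene was 3.95%, for PSMG4 with iodoacetamide only. Whole levels of some genes were lower in both groups with S4U. PSMC6 had 56.8 CPM in labelled cells and 56.0 CPM with S4U only, against 113 CPM with iodoacetamide only and 109 CPM with neither. PSMG1 had 79.4 and 73.2 against 125 and 113 CPM in that order, while PSMD1 stayed at 308 to 322 CPM. What this does to the shares was not tested.

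Label time, culture and sample differ between the lines, so the shares are given side by side. The order of the genes was similar, with a Spearman correlation of 0.90 and a Pearson correlation of 0.79 over 43 genes. The points share the assay and the gene sequences. Without PSMC1, PSMA6 and PSME4, the genes with the highest A549 shares, the Spearman correlation was 0.90. The 4 core chaperones had a median of 70.7% in HEK293T and the constitutive beta genes 20.5%. The ATPases had 41.3% and the lid 43.4%. Between HEK293T and NIH/3T3, both labelled for 6 h, the Spearman correlation over 42 genes was 0.74. One gene that stood differently was PSMB3, at 8.80% in HEK293T and 35.9% in the mouse cells.

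**Figure D2:**
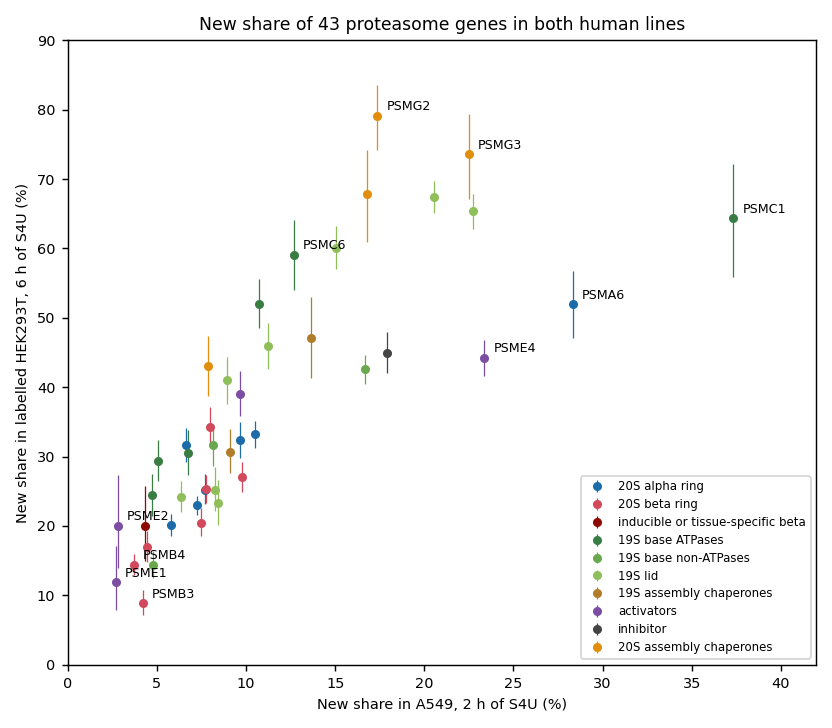
New share of the 43 genes with at least 50 counts in each human line, A549 (2 h of S4U) on the x axis and labelled HEK293T (6 h) on the y axis, with exact Clopper-Pearson 95% intervals for HEK293T. Shares rise together up to about the level of PSMG2 and PSMG3, while PSME4, PSMA6 and PSMC1 lie to the right of the other genes.

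The 5 genes under the minimum in labelled HEK293T cells were PSMA8, PSMB8, PSMB9, PSMD5 and ENSG00000256646.3. PSMB8 had 0, 0, 2 and 0 counts in HEK293T cells with label, iodoacetamide only, S4U only and neither. A count of 0 in labelled cells allows up to 0.449 CPM. In the 6 A549 cultures PSMB8 had 9.84 to 13.8 CPM, from 2692 counts. PSMB9 had 3, 2, 1 and 2 counts in HEK293T, and 9.01 to 11.4 CPM in A549. PSMB10, the remaining inducible subunit, was present in both lines, at 20.0 to 33.8 CPM in HEK293T and 23.7 to 27.3 CPM in A549. PSME1 and PSME2 had 24.3 to 31.4 and 17.1 to 22.5 CPM in HEK293T, and 72.6 to 82.6 and 56.0 to 65.9 CPM in A549.

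PSMD5, a chaperone of the 19S base, had only 6, 4, 8 and 6 counts in the HEK293T groups (0.415 to 1.62 CPM). In A549 it had 99.2 to 102 CPM, from 21761 counts. Its antisense neighbour PSMD5-AS1 had 8, 11, 9 and 5 counts in HEK293T and 20.1 to 23.2 CPM in A549. The other 19S base chaperones, PSMD9 and PSMD10, passed the minimum in both lines. Mouse Psmd5 had 327 counts in labelled NIH/3T3 cells. PSMA8, an alpha subunit of the testis, was near absent in both lines, with 0.104 to 0.898 CPM in HEK293T and 0.302 to 0.580 CPM in A549. These differences between lines have no test, because the lines were cultured and processed as separate samples.

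**Figure D3:**
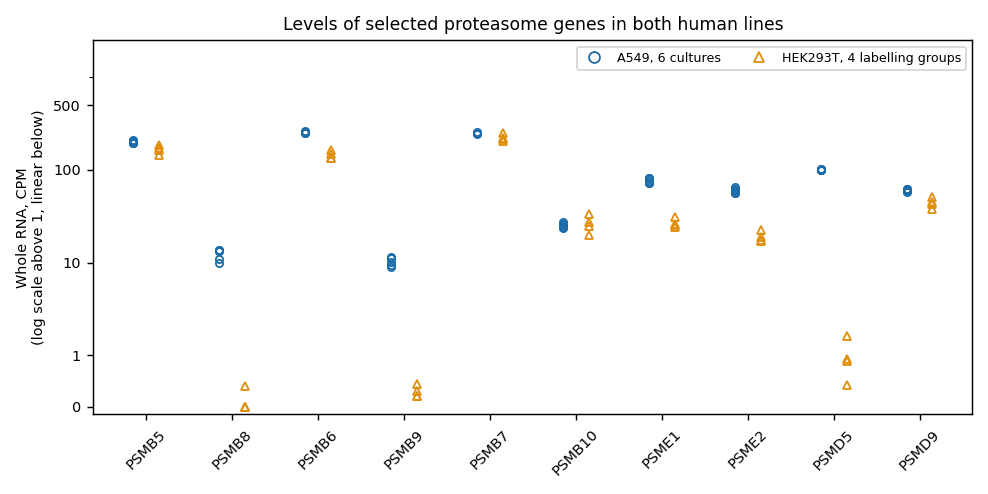
Whole RNA in CPM for 10 proteasome genes, with 1 circle per A549 culture and 1 triangle per HEK293T labelling group, on an axis that is logarithmic above 1 and linear below. PSMB8, PSMB9 and PSMD5 lie at or near 0 in HEK293T, while their counterparts or fellow chaperones PSMB5, PSMB6 and PSMD9 are present in both lines.

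With edgeR, 1 of the proteasome genes passed a test of dexamethasone in A549, PSMA6 in new RNA, and that call is lost without the 6 h culture. DESeq2 also called PSMA6 and, in the slope of whole RNA, PSMG4 and PSMB8. In whole RNA the summed level of the 48 genes was 8457 CPM at 0 h and 8505, 8425, 8206, 8086 and 8156 CPM at 2, 4, 6, 8 and 10 h. The treated cultures lay both above and below the 0 h culture. With the edgeR quasi-likelihood test of the 5 treated cultures against 0 h, 0 of the 48 genes were called in whole RNA, where 0.878% of all 22894 genes tested were called. Unadjusted, 2 had a p under 0.05, beside 12.8% of all genes, and DESeq2 also called 0. The fitted log2 folds ran from -0.28 (PSMG3) to 0.29 (PSMA6), with 22 above 0 and 26 below, and a median of 0.00 beside 0.00 over all genes. The 40 genes with at least 10000 counts had a median coefficient of variation of 2.77% over the treated cultures. Over all 4839 protein-coding genes with that minimum it was 5.04%. The sets were not matched for counts above the minimum. The lone 0 h culture is assumed in this test to vary like the treated ones, whose spread also holds any change between 2 and 10 h.

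In new RNA the summed level was 4146 CPM of all new counts at 0 h, and 3846, 3850, 3920, 3891 and 3973 CPM from 2 to 10 h. Here all 5 treated cultures lay below 0 h. Of 47 genes tested, 1 was called in new RNA, PSMA6, where 6.00% of all 17507 genes were called. The median log2 fold was -0.05 (0.01 over all genes), and 34 of the 47 folds were negative. With library totals in place of TMM factors the median was -0.12, beside -0.06 over all genes. Among the constitutive beta genes 6 of 7 folds were negative, with a median of -0.14 and the lowest for PSMB6 (-0.28 ± 0.11 SE, adjusted p = 0.235). None of the 7 passed the test.

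**Figure D4:**
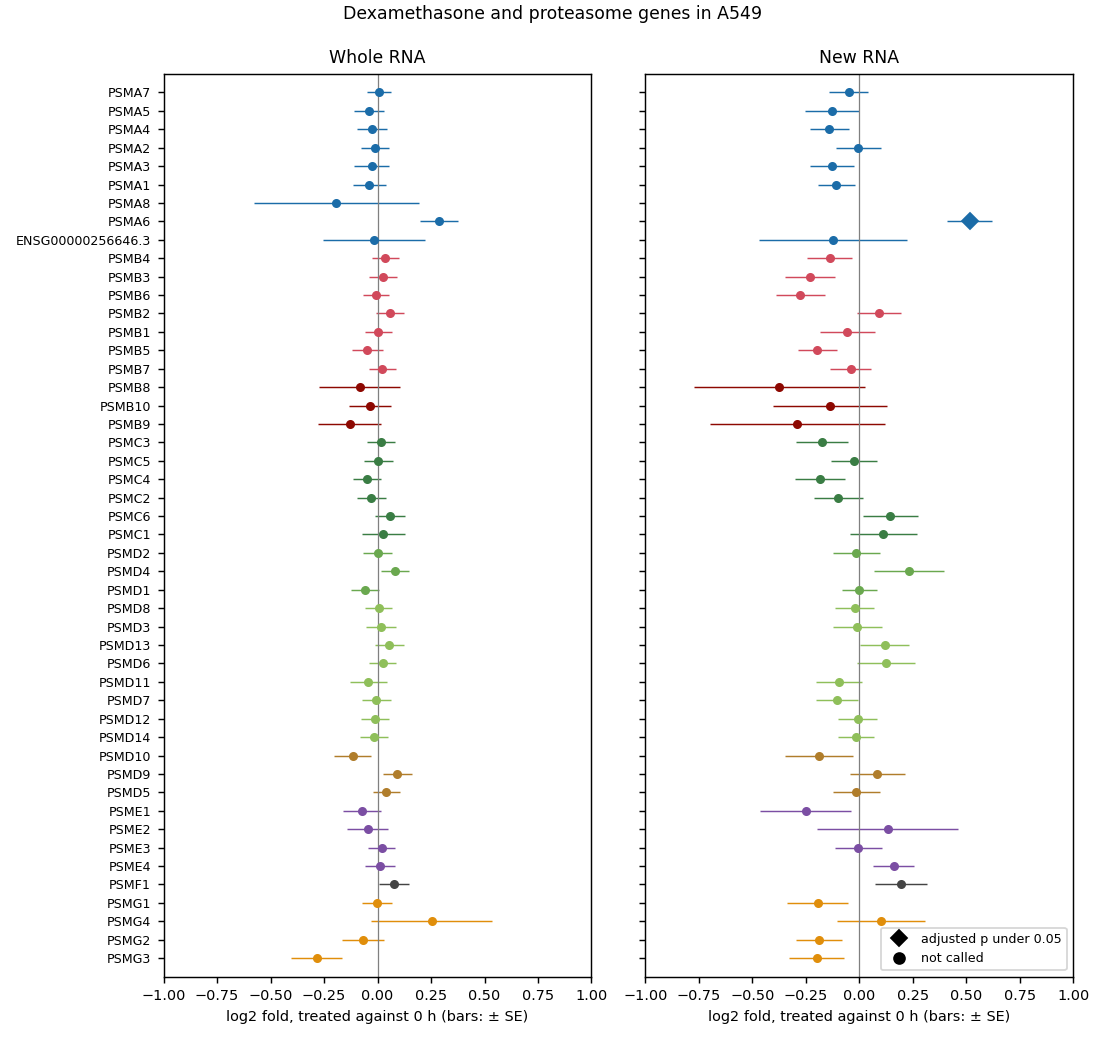
Log2 fold of each proteasome gene in A549, the 5 treated cultures against the 0 h culture, in whole RNA (left) and new RNA (right), with bars of 1 SE from the edgeR fit and colours by role. PSMA6 in new RNA, at 0.52, is the only gene past the adjusted threshold of 0.05; PSMA8 was too low to be tested in new RNA.

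PSMA6, an alpha subunit of the core, rose in new RNA. It had 73.8 CPM of new counts at 0 h, and 95.2, 103, 107, 99.7 and 98.7 CPM at 2, 4, 6, 8 and 10 h. All treated cultures lay above 0 h, with a log2 fold of 0.52 ± 0.11 (SE, adjusted p = 0.0195). Without the 6 h culture the fold was 0.49 and the adjusted p 0.0551, so the call was lost. In whole RNA PSMA6 had 61.8 CPM at 0 h and 69.0, 71.6, 80.1, 75.1 and 73.9 CPM later, again all above 0 h, but it did not pass the test (0.29 ± 0.09, adjusted p = 0.239). New and whole counts come from the same cultures.

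The genes next to PSMA6 had these values. NFKBIA, the inhibitor of NF-κB and a textbook glucocorticoid target, rose from 152 CPM of new counts at 0 h to 341 to 425 CPM (log2 fold 1.44 ± 0.13, adjusted p = 0.00031). In whole RNA it rose by 1.40 ± 0.11 (adjusted p = 0.00194). The symbol KIAA0391 stands beside 2 gene identifiers on the other side of PSMA6. ENSG00000100890.11 had a log2 fold of 0.34 ± 0.12 in new RNA (adjusted p = 0.153). ENSG00000258790.1, which overlaps PSMA6 on the same strand, had 0.78 ± 0.24 (adjusted p = 0.100). PPP2R3C, a further neighbour, had 0.33 ± 0.15 (adjusted p = 0.298). The overlapping gene's own level was low, at 5.43 CPM of new counts at 0 h and 7.44 to 9.68 CPM in treated cultures. What part it has in the PSMA6 counts was not tested.

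The edgeR tests called none of the immunoproteasome genes, while DESeq2 called the slope of PSMB8, as given below. PSMB8 had 13.3, 13.4, 13.6, 13.8, 11.0 and 9.84 CPM of whole RNA at 0, 2, 4, 6, 8 and 10 h, with the later 2 cultures lowest. PSMB9 had 11.4, 11.3, 11.2, 10.2, 9.49 and 9.01 CPM, lowest at 10 h. PSMB10 had 26.3, 25.9, 27.3, 23.7, 24.2 and 25.1 CPM, in no order of time. The constitutive counterparts follow in the same order. PSMB5 had 210.3, 208, 208, 197, 194 and 193 CPM, PSMB6 had 261, 260, 259, 256, 250 and 251 CPM, and PSMB7 had 251, 252, 258, 249, 246 and 249 CPM. Against 0 h the log2 folds of PSMB8, PSMB9 and PSMB10 were -0.08, -0.13 and -0.03 in whole RNA. New counts were few, 12 to 21 per culture for PSMB8, 13 to 27 for PSMB9 and 30 to 49 for PSMB10.

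Over the treated times alone, the edgeR test of a linear slope called 0 of the 48 genes in whole RNA, where 12.6% of all 21493 genes were called. Unadjusted, 11 had a p under 0.05, 10 of them with a negative slope, beside 25.1% of all genes. DESeq2 called 2, PSMG4 and PSMB8. The slope of PSMB8 was -0.06 ± 0.02 log2 units per hour (adjusted p = 0.0667, and 0.0489 with DESeq2). That of PSMB9 was -0.04 ± 0.01 (adjusted p = 0.0941). PSME1 and PSME2 had -0.02 ± 0.01 and -0.03 ± 0.01 (adjusted p = 0.0764 and 0.101). Of the 48 slopes, 35 were negative, with a median of -0.01 beside 0.00 over all genes.

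PSMG4 gave the largest slope, 0.08 ± 0.02 log2 units per hour (adjusted p = 0.0555, and 0.0178 with DESeq2). It had 16.0, 15.6, 17.1, 17.3, 16.4 and 26.7 CPM, so only the 10 h culture was high. Without the 1 index described above that culture had 18.6 CPM, and the slope was 0.02 ± 0.01 (adjusted p = 0.304). In the cells of that index 3.87% of the PSMG4 counts were new, 13 of 336, against 17.9% in the rest of the culture. PSMG3, by contrast, was highest at 0 h, with 38.3, 35.4, 30.2, 28.1, 29.4 and 31.4 CPM, and was not called (log2 fold -0.28 ± 0.12, adjusted p = 0.378).

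**Figure D5:**
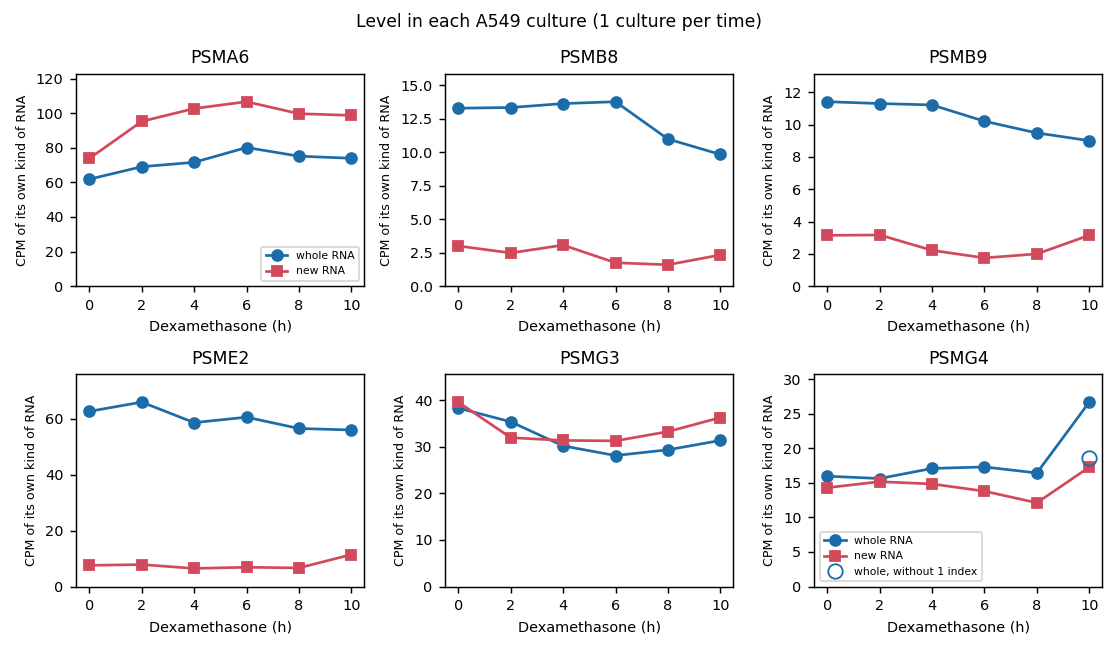
Whole RNA (circles) and new RNA (squares) of 6 proteasome genes in each A549 culture, each in CPM of its own kind of RNA, against hours of dexamethasone. PSMA6 is higher at every treated time than at 0 h, PSMB8 and PSMB9 are lowest at 10 h in whole RNA, and the open circle shows PSMG4 at 10 h without the 1 index (18.6 in place of 26.7 CPM).

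In new RNA the slope test called 0 of 47 genes, where 7.70% of all 16366 genes were called. Unadjusted, 3 had a p under 0.05, beside 21.5% of all genes, and DESeq2 called 0. All 3 slopes were positive, for the ATPases PSMC6 and PSMC4 and the inhibitor PSMF1, each at 0.03 ± 0.01 log2 units per hour (adjusted p = 0.133, 0.160 and 0.153). All 6 ATPase slopes were above 0, as were 34 of the 47 slopes of the whole set.

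The last test asked whether the balance of new to pre-existing RNA (whole minus new counts) differed between treated cultures and 0 h. edgeR called 0 of the 48 genes and 0% of all 22440 genes tested. Unadjusted, 1 proteasome gene, PSMA6, had a p under 0.05 (0.33 ± 0.12, adjusted p = 0.860), beside 5.42% of all genes. DESeq2 called 0 of the 48 and 13 of all genes. The new share of the 48 genes together was 10.2, 9.19, 9.28, 10.8, 10.5 and 10.2% at 0, 2, 4, 6, 8 and 10 h. It was lowest at 2 and 4 h and highest at 6 h, as was the new share of all counts, at 20.9, 20.3, 20.3, 22.6, 21.8 and 21.0%. By gene, 39 of the 48 had their lowest share at 2 or 4 h and 18 their highest at 6 h. The same was not counted over all genes. The median share of protein-coding genes with at least 50 counts in the culture was also lowest at 2 and 4 h (25.4 and 25.8%). It was highest at 6 h (28.1%).

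Of the 29 other genes of the ubiquitin and proteasome pathway, edgeR called 0 in whole RNA against 0 h, beside 0.878% of all genes. Unadjusted, 5 had a p under 0.05, beside 12.8% of all genes, and DESeq2 called 1. In new RNA 2 were called lower, where 6.00% of all genes were called in either direction. UBB, a polyubiquitin gene, fell by 0.48 ± 0.09 (log2, adjusted p = 0.0137). NFE2L2, the transcription factor NRF2, also fell by 0.49 ± 0.09 (adjusted p = 0.0151). Slopes over treated times in whole RNA were called negative for 3 of the 29, where 12.6% of all genes were called in either direction. NFE2L1, the transcription factor that induces proteasome genes when proteasome activity is low, rose by 0.05 ± 0.01 log2 units per hour (adjusted p = 0.00207), from 98.4 CPM at 2 h to 127 CPM at 10 h. UBB, the ubiquitin-activating enzyme UBA6 and the proteasome-binding protein ZFAND5 each had slopes of -0.03 (adjusted p = 0.0188, 0.0254 and 0.0220). In new RNA only ZFAND5 had a called slope, -0.05 ± 0.01 (adjusted p = 0.0281), where 7.70% of all genes were called. Of the 13 antigen processing genes, 0 were called against 0 h in whole or in new RNA with edgeR or DESeq2. Over all genes edgeR called 0.878% and 6.00%. Unadjusted, 0 had a p under 0.05 in whole RNA and 1, the MHC class I light chain B2M, in new RNA. Over all genes 12.8% and 18.1% had such a p.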

How the data were processed

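Members and lists were chosen with earlier results of these data known. Per the file headers and labels, the deposited files give raw counts for each gene in each cell, 1 matrix for whole RNA and 1 for counts the authors called newly synthesised. The submitters' processing notes name Trim Galore 0.4.1, STAR 2.5.2b, SAMtools 1.3, Picard 1.105 and the builds hg19 and mm10. How duplicates were collapsed and new molecules called is not stated in these sources. The authors' deposited doublet score reached 0.191 in A549, and no cell was left out on it. Here cells were summed per A549 time or per mixture line and labelling group, as the authors' cell annotation gives them. CPM divides by the group's total, of human genes in HEK293T. Shares need at least 50 whole counts and carry exact Clopper-Pearson 95% intervals, which cover counting error only.

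Tests used edgeR 4.0.16 (R 4.3.3) on summed counts, with TMM, filterByExpr (minimum count 10) and Benjamini-Hochberg adjustment over all genes tested, at 0.05. Treated against 0 h had 4 residual degrees of freedom, the slope over 5 treated times 3. DESeq2 1.42.0, no low-count filter, library totals and leaving out each treated culture were alternatives. On simulated counts, 83% (whole, 22221 genes) and 88.5% (new, 16868 genes) of 200 genes changed 2-fold were recovered. For slopes of 0.1 log2 units per hour, 83% and 82% were recovered in whole and new RNA (21039 and 16050 genes). Of 2-fold differences in the balance of new to pre-existing RNA, 71% were recovered (19914 genes). The changed genes had a mean above 50 counts, and 1 dispersion served all genes. Smaller changes, such as the PSMA6 log2 fold of 0.52 in new RNA, were not simulated. P-values measure only the spread between single cultures. In the tests against 0 h that spread also holds any change between 2 and 10 h of treatment. Values in every culture are given for genes called by a test, the 3 highest and 3 lowest new shares, and PSMB5 to PSMB10. PSMG3, PSMG4 and PSMD5 were added after their values were seen. GENCODE release 29 (GRCh38) served for names, overlaps, lengths and sequences only. Some genes of the pathway lists are not reported here.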

Additional observations from a re-analysis of the deposited data

Results flagged for a closer look

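In each of 14 genes given above by culture or line, 3 measures (whole CPM, new CPM and new share) were screened over the 5 treated A549 cultures for 1 culture far from the others, 42 screens in all. Chance flags about 1 in 20 independent groups, and 4 of these screens stood out. That rate does not hold here, because PSMG4 and PSMD5 were added after their values were seen. The 3 measures of a gene also share counts. PSMG4 whole RNA at 10 h was 26.7 CPM, against 17.3 CPM in the nearest culture, and 18.6 CPM without 1 reverse-transcription index. PSME2 new RNA at 10 h was 11.4 CPM, against 7.85 CPM in the nearest culture, and its new share 4.29%, against 2.57%. These rest on 98 new counts at 10 h and 38 to 67 at the other treated times. The new share of PSMD5 at 2 h was 15.2%, against 17.4% in the nearest culture, and 2 h was also among the lowest times for the 48 genes together.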

How the results depend on the processing

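No paired analysis was possible because each time had 1 culture and no replicate numbers. The counts of proteasome genes called kept at 0 in whole RNA against 0 h, in the slope of new RNA and in the balance of new to pre-existing RNA under all alternatives run. For new RNA against 0 h the count was 0 to 1 when 1 treated culture was left out, with 0 only without the 6 h culture, and 1 under the other settings. For the slope in whole RNA it was 2 with no low-count filter (PSMG4 and PSMB8), 2 with library totals (PSMA3 and PSMD11), 2 with DESeq2, and 0 to 1 when 1 treated culture was left out. Library totals and the removal of 1 index were chosen after seeing the data. Without the index the counts of edgeR calls were the same, but edgeR with its filter had not called PSMG4 with the index either. The PSMG4 slope calls of DESeq2 and of edgeR with no low-count filter were not rerun without the index. The PSMA6 fold in new RNA ranged from 0.45 to 0.54 (adjusted p 0.0047 to 0.0551). The PSMG4 slope ranged from 0.01 without the 10 h culture (adjusted p = 0.798) to 0.10. The median new share in A549 was 8.35% with at least 500 counts, 8.65% as the median over cultures, and 8.4 to 8.85% when 1 culture was left out. The mean over cells of the summed share was 10.2%, since it weights genes by their counts. In HEK293T the median was 30.7% with at least 500 counts (33 genes), 33.4% as a mean over cells, and 30.2% after the iodoacetamide-only share was subtracted.

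The 0 h culture is a single one, so a difference between it and the treated cultures cannot be told apart from a difference between cultures. Depth limits PSMA8, ENSG00000256646.3 and the new counts of PSMB8 and PSMB9.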

Other observations

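Single A549 cells carried the 48 genes together at a depth that lets their sum be described cell by cell. By single gene, the cells with a count ranged from 1.38% (PSMA8) to 99.6% (PSMA4). The median cell held 215 to 239 proteasome counts across the 6 cultures, of which 19 to 24 were new. The median cell's new share over the 48 genes was 9.83, 8.96, 8.88, 10.3, 10.0 and 9.94% at 0, 2, 4, 6, 8 and 10 h, with a lower quartile of 7.87% at 0 h. How much of this spread between cells is counting error was not tested.

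The annotation also holds 3 noncoding genes named as antisense to a proteasome gene. In A549 PSMD5-AS1 had 32.1% of its counts called new, against 17.3% for PSMD5, PSMD6-AS2 had 47.7%, against 8.92% for PSMD6, and PSMG3-AS1 had 23.4%, against 22.5% for PSMG3. The share of PSMG3-AS1 lay within the exact 95% interval of PSMG3 (21.5 to 23.5). PSMD6-AS2 rests on 570 counts and its partner on 21223.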
